A study of Mus musculus with 72 samples.

Results

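The sites described here are regions of the mouse nucleus accumbens where the H3K27me1 signal differed between stressed and unstressed mice in a table of differential sites, yet lay under the IgG background in both groups. They are the autosomal sites of the early life stress table whose deposited enrichment over IgG was under 1 in the stressed and in the control group. The rule found 2212 such sites among 9365 autosomal sites (23.6%). Another 2017 autosomal sites (21.5%) were above 1 in both groups, and the other 5136 had a group on or across the limit. The members were chosen by measured values, the read averages and enrichments of the same libraries that gave the differences. Their levels, enrichments and directions are therefore descriptions, with no test.

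CUT&RUN (an antibody-directed nuclease releases DNA beside a chromatin mark) was run on nuclei of the nucleus accumbens, the part of the ventral striatum best known for reward processing. The stressed group, ELS-SbD, was wild-type male mice exposed to early life stress and then to subthreshold defeat, with 3 H3K27me1 libraries (numbers 40, 44 and 48). The controls, Std-Control, were wild-type male mice with standard rearing and no defeat, also with 3 H3K27me1 libraries (37, 41 and 45). ELS-SbD mice differ from Std-Control mice in rearing and in defeat, so the effects of these stresses cannot be told apart in this contrast. The labels give no age and do not say whether a library came from 1 animal or a pool, so spreads between libraries may be technical. Each group had its own 3 IgG libraries, which the file header names as background. The series holds 72 samples in 21 groups.

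H3K27me1 is a single methyl group on lysine 27 of histone H3. Polycomb repressive complex 2 adds methyl groups to this lysine, the demethylases KDM6A and KDM6B remove them from its more methylated states, and the states occupy different sequence. Monomethylation is best known from the bodies of transcribed genes, dimethylation from broad intergenic and silent regions, and trimethylation from silenced developmental promoters. An IgG library has an antibody with no chromatin target, so its reads show how much DNA is released without the mark. A site under 1 has fewer reads with the H3K27me1 antibody than with IgG after the authors' scaling.

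Promoter windows are shown first because gene starts are the class of position where the signal lay furthest under IgG. The windows are RefSeq's (build GRCm38.p6, which has the mm10 coordinates), 5′ to 3′ along the gene, each 300 bases long with 250 before the start and 50 after it. Capitals mark CG dinucleotides, which are dense in the promoters of widely expressed genes. The first 4 belong to the start sites with the most reads among those holding a whole window, and the last 2 to the sites with the lowest enrichment.
Duxf3 (chr10:58233040-58233339, minus strand): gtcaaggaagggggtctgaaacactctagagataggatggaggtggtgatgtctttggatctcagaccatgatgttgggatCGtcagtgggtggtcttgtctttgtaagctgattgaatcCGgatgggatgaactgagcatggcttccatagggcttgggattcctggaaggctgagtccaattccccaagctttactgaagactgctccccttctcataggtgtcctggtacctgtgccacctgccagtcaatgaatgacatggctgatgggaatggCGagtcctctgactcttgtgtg
Stard7 (chr2:127269979-127270278, plus strand): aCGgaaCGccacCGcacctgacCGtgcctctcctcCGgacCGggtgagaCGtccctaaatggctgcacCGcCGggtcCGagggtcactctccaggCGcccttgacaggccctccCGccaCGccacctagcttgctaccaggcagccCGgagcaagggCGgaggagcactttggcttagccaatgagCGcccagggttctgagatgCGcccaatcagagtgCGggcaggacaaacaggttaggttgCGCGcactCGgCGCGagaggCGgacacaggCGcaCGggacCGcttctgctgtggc
Mbd5 (chr2:48949258-48949557, plus strand): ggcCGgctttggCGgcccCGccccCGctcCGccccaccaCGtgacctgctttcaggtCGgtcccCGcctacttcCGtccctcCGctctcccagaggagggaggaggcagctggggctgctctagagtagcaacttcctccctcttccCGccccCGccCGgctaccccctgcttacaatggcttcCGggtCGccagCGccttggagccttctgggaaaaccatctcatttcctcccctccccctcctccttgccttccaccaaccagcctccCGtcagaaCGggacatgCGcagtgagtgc
Lin7b (chr7:45370515-45370814, minus strand): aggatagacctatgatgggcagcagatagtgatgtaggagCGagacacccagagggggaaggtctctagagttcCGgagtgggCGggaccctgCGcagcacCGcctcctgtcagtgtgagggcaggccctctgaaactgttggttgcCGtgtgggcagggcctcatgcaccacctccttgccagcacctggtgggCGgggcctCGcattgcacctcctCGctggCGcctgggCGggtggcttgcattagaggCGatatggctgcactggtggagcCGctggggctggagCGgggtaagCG
Pja2 (chr17:64331834-64332133, minus strand): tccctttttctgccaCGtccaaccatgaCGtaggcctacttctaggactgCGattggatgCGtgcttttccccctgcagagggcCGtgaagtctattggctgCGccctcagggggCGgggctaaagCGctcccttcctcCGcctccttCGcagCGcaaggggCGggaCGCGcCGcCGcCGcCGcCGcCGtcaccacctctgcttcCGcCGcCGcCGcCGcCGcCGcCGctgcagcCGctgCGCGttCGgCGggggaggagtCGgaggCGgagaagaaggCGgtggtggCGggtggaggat
Slc25a25 (chr2:32451421-32451720, minus strand): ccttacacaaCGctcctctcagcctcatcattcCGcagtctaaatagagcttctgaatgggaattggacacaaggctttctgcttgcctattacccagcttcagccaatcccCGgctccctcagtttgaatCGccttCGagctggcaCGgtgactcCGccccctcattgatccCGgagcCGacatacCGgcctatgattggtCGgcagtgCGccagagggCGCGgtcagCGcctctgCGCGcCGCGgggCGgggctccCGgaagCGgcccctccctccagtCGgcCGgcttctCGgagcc
The windows of Stard7, Mbd5, Lin7b, Pja2 and Slc25a25 carried 27, 19, 15, 37 and 25 CG dinucleotides, and that of Duxf3 carried 3. Duxf3 belongs to a multi-copy family of homeobox genes, and its site differed from the other start sites in its reads too, as given below.

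Among the 177 protein-coding genes with a start within 1000 bp of a member, 137 were in the promoter table. Of the 177, 52 had a window wholly inside a member. In all, 63 windows of 61 genes lay wholly inside a member, so some belonged to genes outside the 177. Their median G and C content was 62.7% (41.3% to 79.7%), against 57.3% over 19174 windows of autosomal protein-coding genes. The median number of CG dinucleotides was 23 in the member windows and 14 over all windows. At least 10 of them were present in 85.7% of member windows and in 59.3% of all windows. The 18 windows inside the autosomal sites on or across the limit were poorer, with a median of 50% G and C and 3 CG dinucleotides. Only 1 window lay inside a site above IgG.

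**Figure D1:**
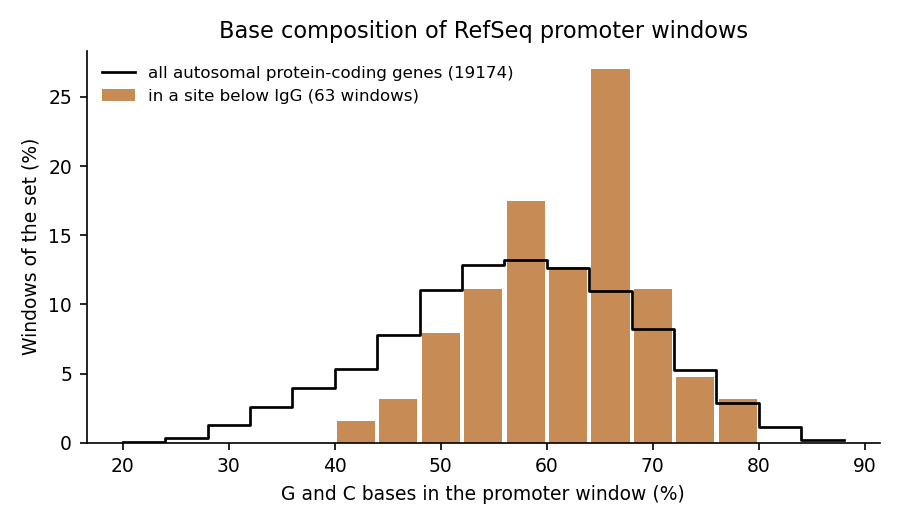
Base composition of 300-base RefSeq promoter windows. The horizontal axis is the percentage of G and C bases and the vertical axis the percentage of windows of a set in each step. Filled bars are the 63 windows inside sites below IgG (median 62.7%), and the line is all 19174 windows of autosomal protein-coding genes (median 57.3%).

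Short motifs were searched on both strands of the same windows. The ETS-type sequence CCGGAAG was in 19 of 63 member windows (30.2%) and in 12.1% of all windows. The GC box GGGCGG was in 39 of 63 (61.9%) and in 48.3% of all. The CCAAT box (CCAAT) was in 44.4% and 37.5%, the E-box CACGTG in 14.3% and 8.04%, and the cAMP response element TGACGTCA in 7.94% and 2.36%. TATAAA was in 9.52% of member windows and 12.1% of all, and GCGCATGC in 3.17% and 3.67%. A match is only a run of letters in the window, and several of these motifs hold CG dinucleotides, which the member windows carry in greater number.

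Sites below IgG lay mainly between genes. By GENCODE release M21 on mm10, 1443 of 2212 (65.2%, exact 95% interval 63.2% to 67.2%) were intergenic with respect to protein-coding genes, 615 (27.8%) lay in a gene body and 154 (6.96%, 5.94% to 8.10%) lay within 1000 bp of a gene start. The sites above IgG were placed the other way round. Of those, 1573 of 2017 (78.0%) lay in gene bodies, 433 (21.5%) were intergenic and 11 (0.545%, 0.273% to 0.974%) were at a start. On each of the 19 autosomes both the start share and the intergenic share were larger among sites below IgG than among sites above it. The intervals cover counting error only, and sites of the same libraries are not independent samples. The remaining autosomal sites were intermediate, with 1.52% at starts and 58.7% intergenic.

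**Figure D2:**
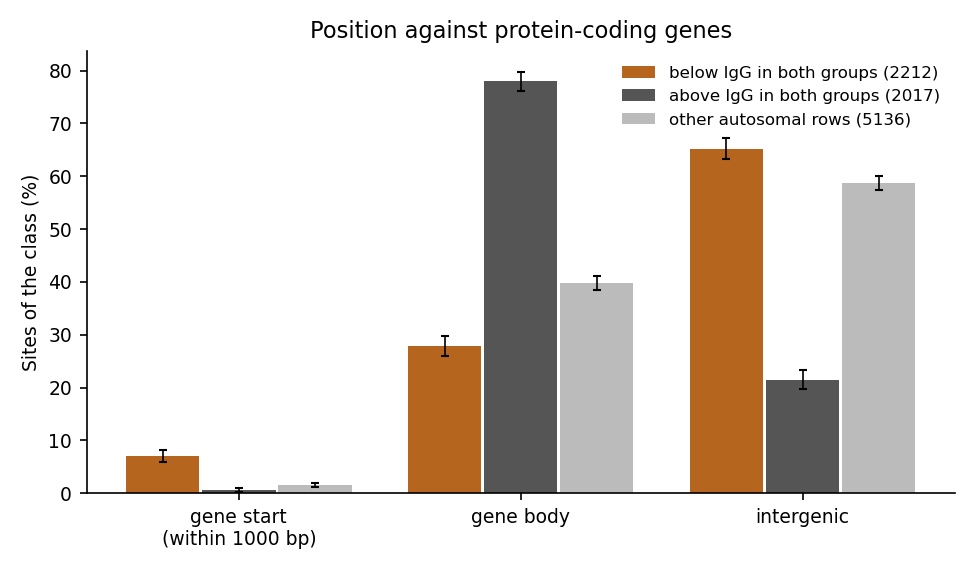
Position of the autosomal sites against protein-coding genes. Bars give the percentage of a class at gene starts (within 1000 bp), in gene bodies and in intergenic sequence, with exact 95% binomial intervals. Sites below IgG in both groups were 65.2% intergenic and 6.96% at starts, and sites above IgG in both groups were 78.0% in gene bodies.

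Within the intergenic members, the median distance to the nearest protein-coding start was 162955 bp, against 74459 bp for intergenic sites above IgG. For the intergenic sites among the remaining autosomal sites it was larger, at 221766 bp. In all, 870 intergenic members (60.3%) were over 100000 bp from a start. A gene of another biotype covered 183 of the intergenic members (12.7%), against 28.6% of the intergenic sites above IgG. Over all members, 121 (5.47%) touched a lincRNA gene, 40 (1.81%) an antisense gene and 24 (1.08%) a pseudogene. Of the 615 gene-body members, 133 (21.6%) touched an exon and the others were intronic. An exon was touched by 26.8% of gene-body sites above IgG and 18.3% of the remaining gene-body sites.

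The H3K27me1 level of the members was low, and lower still in controls. The median was 29 normalised reads per kb in ELS-SbD and 16.5 in Std-Control, while the IgG level implied by the deposited average and enrichment was 35.5 per kb for ELS-SbD and 33 for Std-Control. Sites above IgG had 60.97 reads per kb in ELS-SbD and 59.8 in Std-Control, over an implied IgG of 31.98 for ELS-SbD and 31.3 for Std-Control. Across both groups, the median H3K27me1 level of members was 0.377 of that of the sites above IgG, and their implied IgG was 1.07 of it. The classes thus differed much more in H3K27me1 reads than in IgG reads, which the rule on the ratio of these quantities partly fixes.

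Gene-start members were an exception on the IgG side. The 154 start members had median H3K27me1 levels of 37.7 reads per kb in ELS-SbD and 21.4 in Std-Control, above those of the other members. Their implied IgG levels were 63.97 per kb for ELS-SbD and 61.2 for Std-Control. Intergenic members had implied IgG levels of 34.4 for ELS-SbD and 31.5 for Std-Control, and gene-body members 36.6 for ELS-SbD and 34.9 for Std-Control. The 11 start sites above IgG had implied IgG of 47.6 for ELS-SbD and 41.4 for Std-Control, also over that of the other sites above IgG. At the 78 start sites on or across the limit it was only 35.1 for ELS-SbD and 36.8 for Std-Control. Gene-body sites on or across the limit had 30.5 for ELS-SbD and 31.4 for Std-Control. The rule on the ratio of H3K27me1 to IgG partly fixes the IgG level of the start members. Among the members, enrichment was lowest at starts, with medians of 0.54 in ELS-SbD and 0.33 in Std-Control. It was 0.83 in ELS-SbD and 0.53 in Std-Control at intergenic members, and 0.81 in ELS-SbD and 0.51 in Std-Control in gene bodies. Both groups were under 0.5 at 49 of 154 start members (31.8%), at 12 of 615 gene-body members (1.95%) and at 16 of 1443 intergenic members (1.11%).

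**Figure D3:**
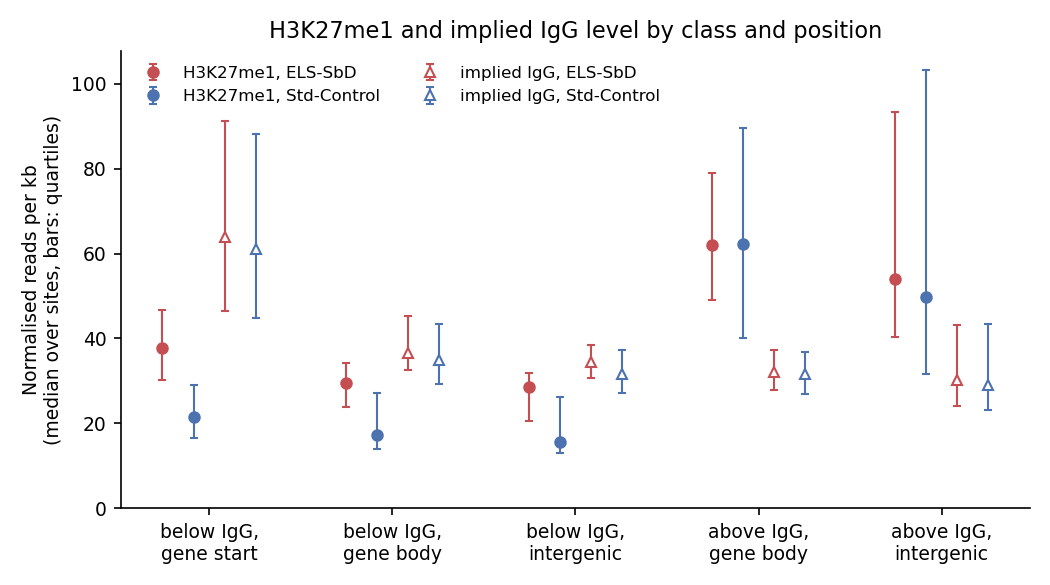
H3K27me1 (filled circles) and implied IgG (open triangles) in normalised reads per kb, for sites below IgG by position and for gene-body and intergenic sites above IgG (the 11 start sites above IgG are not drawn). Points are medians over sites and bars the quartiles, with ELS-SbD left of Std-Control. Start sites below IgG had implied IgG of 63.97 (ELS-SbD) and 61.2 (Std-Control) reads per kb, against values between 29.03 and 36.6 in the other classes shown.

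Depth limits all of these values. Per the file headers, depth was 5 to 7.78 reads per 1000-bp bin in the 6 H3K27me1 libraries. A member had a mean of 15.6 to 351 reads per library, with a median of 24.7, against a median of 66.6 for sites above IgG. Only 48 members (2.17%) passed a mean of 50 reads, while 78.6% of the sites above IgG did. Member lengths were 1000 to 2800 bp, with a median of 1000 bp.

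Most members were higher in ELS-SbD. The group average was higher in ELS-SbD at 1641 members (74.2%, exact 95% interval 72.3% to 76.0%) and lower at 571. A majority were higher on each of the 19 autosomes. Sites above IgG were nearly balanced, with 1081 of 2017 (53.6%) higher, and the remaining autosomal sites were 73.0% higher. By position, 132 of 154 start members (85.7%) were higher, 453 of 615 gene-body members (73.7%) and 1056 of 1443 intergenic members (73.2%). Higher members had medians of 30.8 reads per kb in ELS-SbD and 14.7 in Std-Control, and lower members 14.0 in ELS-SbD and 29.7 in Std-Control. The authors' deposited table gave a median log2 fold change of 1.07 for the higher members and -1.09 for the lower ones, over a range of -1.88 to 2.13. For sites above IgG its medians were smaller, 0.76 for higher and -0.72 for lower sites. For the remaining autosomal sites they were near those of the members, at 0.99 for higher and -1 for lower sites.

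The adjusted p of the authors' deposited table was under 0.05 at 2141 of 2212 members (96.8%), against 96.7% of all 10234 sites of that table. It was met by 1593 members in the higher direction (72.02%; 64.7% of all sites) and by 548 in the lower (24.8%; 31.9% of all sites). The authors' search used a p limit of 0.0001. The deposited p of their negative binomial test nevertheless ran up to 0.00723 among members, and higher among the other autosomal sites. The share called was near that of all sites, so it says nothing particular to the members. All 3 ELS-SbD libraries lay above all 3 Std-Control libraries at 1633 members (73.8%), and that was the case at 66% of all sites in the table. All 3 lay below at 568 members (25.7%), and at 32.8% of all sites. The libraries of the groups thus did not overlap at 2201 members (99.5%), against 98.8% of all sites in the table. With limma on log2(normalised reads + 1) over all 10234 sites, 2208 members passed an adjusted p of 0.05 (Benjamini-Hochberg), against 98.2% of all sites. Of these, 1639 were higher in ELS-SbD (65.8% of all sites were called higher). The sites were listed for their difference in these same 6 libraries, so this is a description of the spread. None passed when the limma adjustment covered all 1287727 windows that the file header counts, although 2208 had an unadjusted p under 0.05.

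Library 48 gave the highest value of the 3 ELS-SbD libraries at 1163 members (52.6%), and library 45 the highest of the 3 Std-Control libraries at 1171 (52.9%). At sites above IgG the corresponding shares were 33.9% for library 48 and 30.3% for library 45. Median reads per kb over the members were 27.1, 27.7 and 30.2 in ELS-SbD libraries 40, 44 and 48, and 16.5, 16.8 and 18.3 in Std-Control libraries 37, 41 and 45. At starts they were 35.4, 34.4 and 41.8 in ELS-SbD, and 20.1, 19.4 and 24.5 in Std-Control. Each group thus had 1 library above its other libraries at the members, and the part of these libraries in the results was not tested.

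Of the 154 start members, 80 (51.9%) covered a gene start and 74 lay beside one. Those that covered a start had implied IgG of 83.7 reads per kb for ELS-SbD and 75.6 for Std-Control, and 75 of the 80 (93.8%) were higher in ELS-SbD. Those beside a start had implied IgG of 54.5 for ELS-SbD and 56.9 for Std-Control, and 57 of the 74 (77.0%) were higher. Higher start members were centred a median of 438 bp from the start, and the 22 lower ones 1078 bp, with 17 of these 22 centred upstream of the start. Among the 177 genes at member starts, 39 (22.03%) had a protein-coding start on the opposite strand within 1000 bp, against 11.2% of 20780 autosomal protein-coding genes.

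Duxf3 had the most reads of the start members, with hardly any difference between groups. At chr10:58232501-58233500, over its start, it had 247, 232 and 255 reads in ELS-SbD, against 232, 241 and 232 reads in Std-Control. The groups overlapped, at 245 ± 11.3 reads in ELS-SbD and 235 ± 5.19 in Std-Control (SD, n = 3 each). The authors' deposited table gave Duxf3 a log2 fold change of 0.06 with an adjusted p of 7.81e-07, while limma across the libraries gave an adjusted p of 0.760.

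The start members with the next most reads were higher in ELS-SbD. Their groups did not overlap, as at 99.5% of members and 98.8% of all sites in the table. Hibch, a mitochondrial hydrolase of valine breakdown (chr1:52844801-52845900, over the start), had 78.0, 87.7 and 85.2 reads in ELS-SbD, against 56.3, 46.7 and 53.2 in Std-Control. Its enrichment over IgG was 0.71 in ELS-SbD and 0.37 in Std-Control. The authors' deposited table gave Hibch a log2 fold change of 0.68, with an adjusted p of 0.00991.

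Stard7, a carrier of phosphatidylcholine to mitochondria (chr2:127269601-127270900), had 73.4, 68.1 and 102 reads in ELS-SbD, against 41.5, 42.8 and 62.8 in Std-Control. As at nearly all members, the groups did not overlap, with library 48 high in ELS-SbD and library 45 high in Std-Control. Its log2 fold change in the authors' deposited table was 0.73, but the adjusted p there was 0.607, so Stard7 was not called. The shared start region of Mbd5, a methyl-CpG-binding-domain protein, and Orc4, a subunit of the origin recognition complex (chr2:48949201-48950200), had 82.6, 83.1 and 66.9 reads in ELS-SbD. In Std-Control it had 46.4, 37.9 and 53.2 reads. Every ELS-SbD library was above every Std-Control library there, at enrichments of 0.44 in ELS-SbD and 0.22 in Std-Control.

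Lin7b, a synaptic scaffold protein (chr7:45369901-45371400), had 71.1, 64.4 and 77.7 reads in ELS-SbD, against 40.5, 39.9 and 49.7 in Std-Control. Avpi1, a vasopressin-induced gene (chr19:42129001-42130000), had 69.95, 65.3 and 79.8 reads in ELS-SbD, against 44.5, 39.9 and 43.6 in Std-Control. As at nearly all members, neither Lin7b nor Avpi1 had overlapping groups, and both were at an enrichment of 0.26 in Std-Control. Gtf2f1, a subunit of the general transcription factor TFIIF (chr17:57010701-57012200), ranged most widely, with 71.1, 50.4 and 108 reads in ELS-SbD against 29.6, 29.2 and 46.2 in Std-Control. Its log2 fold change of 1.13 in the authors' deposited table (adjusted p 0.00914) was the largest of the 12 start sites with the most reads.

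Ankrd52, a regulatory subunit of protein phosphatase 6 (chr10:128375001-128376600), was the only 1 of those 12 that was lower. It had 30.96, 37.3 and 43.2 reads in ELS-SbD, against 63.2, 79.7 and 77.6 in Std-Control. The site lay 515 bp from the start rather than over it, and its enrichment was 0.50 in ELS-SbD and 0.83 in Std-Control. Garem1, an adaptor of growth factor signalling (chr18:21300401-21301500), averaged 67.7 ± 7.96 reads in ELS-SbD and 39.8 ± 6.66 in Std-Control (SD, n = 3 each). Ypel5 (chr17:72835501-72836800) averaged 65.7 ± 1.49 reads in ELS-SbD and 40.2 ± 7.02 in Std-Control (SD, n = 3 each). The implied IgG at Ypel5 was the highest of the 12, at 365 reads for ELS-SbD and 335 for Std-Control. At the paired starts of Cbr1, a carbonyl reductase, and Setd4, a SET-domain protein, the adjusted p in the authors' deposited table was 0.0729, which did not pass.

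**Figure D4:**
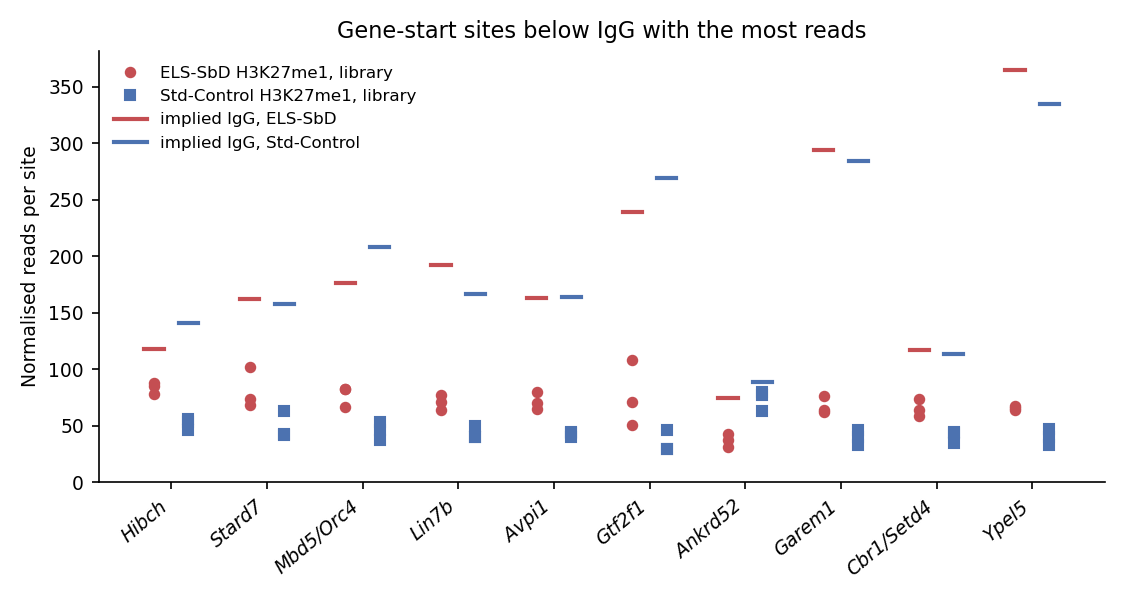
Reads at 10 of the 12 gene-start sites below IgG with the most reads (Duxf3, at 232 to 255 reads, is among those left out). Circles (ELS-SbD) and squares (Std-Control) are single H3K27me1 libraries in normalised reads per site, and short lines are the implied IgG of each group. Ankrd52 is the site where ELS-SbD is lower, and IgG at Ypel5 reaches 365 (ELS-SbD) and 335 (Std-Control) reads.

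The lowest enrichments of all were found near Mepce, Zcwpw1 and Pja2. A site over an exon of Mepce, the capping enzyme of the 7SK RNA, lay within 1000 bp of the starts of Mepce and of Zcwpw1, a histone-methylation reader of meiosis (chr5:137785801-137786800). It had 40.1, 29.9 and 39.9 reads in ELS-SbD, against 20.8, 18.5 and 16.6 in Std-Control. These values were 0.13 of IgG in ELS-SbD and 0.06 in Std-Control. Pja2, a ubiquitin ligase of protein kinase A regulation (chr17:64331301-64332500), had 59.6, 64.4 and 58.3 reads in ELS-SbD, against 38.5, 27.2 and 40.1 in Std-Control. That was 0.14 of IgG in ELS-SbD and 0.07 in Std-Control. Implied IgG over the whole Pja2 site, which is longer than the window shown above, was 434 reads for ELS-SbD and 504 for Std-Control. Because enrichments are deposited to 2 decimals, the implied IgG of the lowest sites is approximate.

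The limit cut through a continuous range of values. Just inside, at an enrichment of 0.99 in the higher group, were an intergenic site on chromosome 11, an intron of Scamp1, a secretory vesicle membrane protein, and an intergenic site on chromosome 2. The Scamp1 site averaged 84.2 ± 6.94 reads in ELS-SbD and 50.4 ± 1.64 in Std-Control (SD, n = 3 each). Just outside, at 1, were a site in Mtcl1, a microtubule crosslinking factor, and an intergenic site on chromosome 10. The Mtcl1 site had 68.8, 62.5 and 92.8 reads in ELS-SbD, against 49.4, 36.9 and 47.95 in Std-Control.

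Away from gene starts, the sites with the most reads were those that differed least. The site at chr6:47750301-47751400 had 341, 334 and 358 reads in ELS-SbD, against 364, 341 and 371 in Std-Control. That at chr6:47674201-47675200 had 333, 300 and 311 reads in ELS-SbD, against 322, 305 and 350 in Std-Control. An intron of Tmem267, a transmembrane protein gene (chr13:119595501-119596500), had 211, 230 and 227 reads in ELS-SbD, against 193, 210 and 219 in Std-Control. The groups overlapped at all of these sites, and together with Duxf3 they were the 4 members that did not pass limma. Their log2 fold changes in the authors' deposited table ran only between -0.06 and 0.10, although that table's adjusted p was at most 0.00283.

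Below these came sites with larger differences. The intergenic site at chr8:55351901-55352900 had 149, 153 and 220 reads in ELS-SbD, against 121, 119 and 131 in Std-Control, with library 48 far above its group. The intergenic site at chr3:92262201-92263700 had 139, 133 and 178 reads in ELS-SbD, against 89.9, 111 and 98.5 in Std-Control. An intronic site of B3galnt2, a glycosyltransferase that modifies dystroglycan (chr13:13967701-13969100), had 95.2, 97.1 and 72.3 reads in ELS-SbD, against 57.3, 56.4 and 48.8 in Std-Control. None of these sites had overlapping groups, which was so at 99.5% of members. The remaining member among the 8 higher ones with the most reads was intergenic on chromosome 2, at 94.5 ± 34.2 reads in ELS-SbD and 48.4 ± 12.3 in Std-Control (SD, n = 3 each).

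Lower members with many reads were mostly intergenic or intronic. The longest member, at chr11:13748501-13751300, had 47.02, 43.9 and 48.6 reads in ELS-SbD, against 91.9, 92.3 and 102 in Std-Control. An intron of Hcrtr2, the orexin receptor of type 2 (chr9:76304601-76306700), had 41.3, 36.4 and 39.9 reads in ELS-SbD, against 79.0, 69.97 and 81.1 in Std-Control. Its log2 fold change in the authors' deposited table was -0.97, with an adjusted p of 6.13e-05. An intron of Lrrc7, a scaffold protein of the postsynaptic density (chr3:158096101-158097600), had 43.6, 40.1 and 27.0 reads in ELS-SbD, against 74.1, 70.95 and 63.6 in Std-Control. The groups were apart at each of these sites, as at 99.5% of members.

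The members were spread thinly over genes. They touched 738 protein-coding genes, 670 of them (90.8%) at 1 site, whereas 19.7% of the 1246 genes with a site above IgG held several. A total of 84 genes held both kinds of site, 11.4% of the genes with a member and 6.74% of those with a site above. Genes with a member had a median length of 75362 bp, against 102242 bp for genes with a site above and 17636 bp for all autosomal protein-coding genes. Genes at member starts were shorter, with a median of 24831 bp.

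The genes with the most members were long. Gm20388, a predicted gene model of 4434882 bp, held 8. Thsd7b, a thrombospondin-domain gene of 945977 bp, held 5, of which 4 were higher in ELS-SbD. Ctnna3, which encodes alpha-T-catenin, Fhit, a dinucleoside hydrolase, and Spag16, a sperm axoneme protein, held 4 each, with 3, 3 and 4 higher. Glis3, a zinc finger transcription factor, and Hhat, the acyltransferase of hedgehog proteins, held 3 each, as did Inpp4b, Klhl1 and Phactr1. Apart from Gm20388, none of these genes had a site above IgG. In Thsd7b the site with the most reads (chr1:130177101-130178700) had 51.6, 51.3 and 52.9 reads in ELS-SbD, against 23.7, 21.4 and 32.3 in Std-Control. The lower Thsd7b site (chr1:129945601-129946600) had 14.9, 13.1 and 5.39 reads in ELS-SbD, against 21.7, 29.2 and 29.6 in Std-Control. Directions thus differed between sites of 1 gene.

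Along the chromosomes, members made up from 20.2% (chromosome 7) to 29.6% (chromosome 14) of a chromosome's sites. Of 1371 bins of 1 Mb with a member, 803 held 1 and 11 held 5 or more. The fullest bins were on chromosome 14, at 3000001 to 4000000 and 5000001 to 6000000, with 7 members each. All 7 in the first bin were higher in ELS-SbD, and 6 of 7 in the second, against 74.2% of all members. The bin at 8000001 to 9000000 of chromosome 17, which holds Pde10a, a phosphodiesterase abundant in the striatum, had 5 members, and all 5 were higher. The bin at 32000001 to 33000000 of chromosome 2 also had 5 members, all higher, at genes that include Slc25a25, a mitochondrial carrier, Ak1, an adenylate kinase, and Eng, an endothelial co-receptor. In the bin at 80000001 to 81000000 of chromosome 16, 4 of 5 members were lower in ELS-SbD. The same was so in the bin from 12000001 of chromosome 3. Other bins with 5 members were also tied with these. All 5 were higher in the bin from 56000001 of chromosome 17. In those from 80000001 of chromosome 10, 16000001 of chromosome 17 and 62000001 of chromosome 8, 4 of 5 were higher. In that from 79000001 of chromosome 13, 3 of 5 were higher.

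Most of the 22 gene classes, neuronal or not, held fewer members than sites above IgG. Over all genes, 27.8% of members and 78.0% of sites above IgG lay in gene bodies, so fewer members in genes was the general share. Class counts of direction stand beside 74.2% higher among all members and 53.6% among all sites above IgG. The counts carry no test, and the gene lists were chosen with earlier results of these data known. Synaptic adhesion genes held 15 members (0.678% of members), against 68 sites above IgG (3.37%). Of the members, 10 were higher and 5 lower in ELS-SbD, while 18 of the 68 sites above were higher. Among them were introns of Lrrc4c, a netrin-G ligand, and Adgrl3, a latrophilin adhesion receptor, and an exon of Slitrk1, a synapse-organising protein. Lrrc4c averaged 32.5 reads in ELS-SbD and 61.4 in Std-Control, with a log2 fold change of -0.92 in the authors' deposited table. Slitrk1 had 51.6, 55.99 and 58.3 reads in ELS-SbD, against 27.7, 31.1 and 34.9 in Std-Control.

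Glutamate receptor genes held 4 members (0.181%) against 23 sites above (1.14%), 3 of the 4 higher. Grik4, a kainate receptor subunit, held 2 of the higher sites. Sodium and calcium channels held 4 members against 17, and GABA receptor and synthesis genes 1 (Gabrg3) against 8. Potassium channels were near parity, with 10 members, 8 of them higher, against 11 sites above. The Kcnh4 site, at the start of a voltage-gated channel gene (chr11:100758201), had 52.8, 44.8 and 51.8 reads in ELS-SbD, against 17.8, 28.2 and 27.9 in Std-Control. Axon guidance genes held 11 members, 6 of them higher, against 18 sites above. The Ntn1 site, in the gene of the guidance cue netrin-1, had 47.02, 57.9 and 53.9 reads in ELS-SbD, against 19.8, 26.2 and 29.6 in Std-Control. The Slit3 site, in the gene of a repellent cue, was lower, with 22.9, 35.5 and 36.7 reads in ELS-SbD against 54.3, 53.5 and 61.02 in Std-Control.

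Ubiquitin and proteasome genes held 7 members, all 7 higher and 5 of them at starts. They held 34 sites above, of which 11 were higher and 0 at a start. Higher sites were 74.2% of all members and 85.7% of start members. Psma1, a core proteasome subunit, had 58.5, 56.9 and 50.7 reads in ELS-SbD, against 30.6, 28.2 and 35.7 in Std-Control. Zinc finger genes held 14 members, 13 higher and 5 at starts, against 42 sites above, 17 of them higher. Against 1 site above IgG, ribosomal protein genes held 3 members, all at starts. Of these Rpl32 and Rpl7 were higher and Rpl21 lower, with 26.4, 18.7 and 17.3 reads in ELS-SbD against 43.5, 35.96 and 39.2 in Std-Control. Kinase and cAMP signalling genes held 13 members, 12 of them higher, against 23 sites above. Small GTPase regulators held 12 members, 10 of them higher, against 28 above. Mitochondrial protein genes held 3 members against 9 above, basal transcription genes 1 against 14, and splicing genes 1 against 3.

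Chromatin genes held 6 members, 3 of them higher, against 18 sites above. Kmt2e, a relative of the histone methyltransferases, averaged 30.3 reads in ELS-SbD and 61.4 in Std-Control at an exonic site, with a log2 fold change of -1.02 in the authors' deposited table. Kmt5a, the enzyme that monomethylates lysine 20 of histone H4, was higher, at 48.2, 44.8 and 69.04 reads in ELS-SbD against 31.6, 25.3 and 29.6 in Std-Control. Developmental transcription factors held 5 members against 5 sites above, and chemosensory receptors 6 against 2. Histone genes and the class of glucocorticoid, stress and neurotrophin genes held 0 members, against 2 and 3 sites above IgG. Of 22 immediate early genes, 2 held an autosomal site, and both sites were members. Dusp1, a MAP kinase phosphatase, was lower at an intronic site 25889 bp from the nearest start, with 17.2, 14.0 and 18.3 reads in ELS-SbD against 33.6, 30.1 and 34.9 in Std-Control. Egr1, an activity-induced transcription factor, was higher, with 25.2, 28.9 and 32.4 reads in ELS-SbD against 12.8, 18.5 and 10.5 in Std-Control.

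The striatal neuron class had 5 members, all 5 higher in ELS-SbD, and 1 site above IgG. Of all members, 74.2% were higher. The class held 14 autosomal sites in all, and the others were on or across the limit. Rgs9, a regulator of G protein signalling abundant in the striatum (chr11:109259501), had 66.5, 61.6 and 72.3 reads in ELS-SbD, against 36.6, 30.1 and 45.3 in Std-Control. Its enrichment was 0.65 in ELS-SbD and 0.34 in Std-Control. Foxp1, a transcription factor of striatal projection neurons, held 2 neighbouring intronic members, both higher. The larger had 44.7, 41.99 and 51.8 reads in ELS-SbD, against 22.7, 26.2 and 26.2 in Std-Control. The glial and vascular class had 1 member, in the astrocyte glutamate transporter gene Slc1a2, and 1 site above. Of 21 cell type markers, 4 held any autosomal site of the table and 2 (Foxp1 and Rgs9) held a member. The table lists differential sites only, so it gives no check of the cell types in the tissue.

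Chronic social defeat stress (CSDS) was profiled in other wild-type male mice, with 4 H3K27me1 and 4 H3K27me2 libraries per group. CSDS-Susceptible and CSDS-Resilient mice were each set against the same CSDS-Control mice, so their tables share controls. Sites below IgG were rare there. They made up 40 of 12124 autosomal sites (0.330%) in the susceptible and 28 of 7011 (0.399%) in the resilient H3K27me1 table, and 68 of 2075 (3.28%) in the susceptible and 87 of 4654 (1.87%) for H3K27me2 in the resilient mice. In the early life stress table the share was 23.6%. Depth in the defeat H3K27me1 libraries was 20.57 to 30.39 reads per 1000-bp bin, and per the file headers the defeat tables used a G-test and the early life stress table a negative binomial test. The part of depth and test in these shares was not tested.

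Few members lay at a site listed for defeat. In all, 40 of 2212 (1.81%) overlapped 1 or more by at least 1 bp, 6 of them an H3K27me1 site and 37 an H3K27me2 site. The susceptible H3K27me1 table was touched by 5 members (0.226%), against 129 sites above IgG (6.40%). The resilient H3K27me1 table was touched by 4 members (0.181%) and 49 sites above (2.43%). In contrast, the susceptible H3K27me2 table was touched by 15 members (0.678%) and 8 sites above (0.397%), and the resilient one by 26 members (1.18%) and 22 sites above (1.09%). Of the remaining autosomal sites, 0.117% touched the susceptible and 0.0584% the resilient H3K27me1 table. For H3K27me2 their shares were 0.565% (susceptible) and 0.935% (resilient), so the pattern was not particular to the members. As shares of the defeat tables, the members took up 0.0412% of susceptible and 0.0571% of resilient H3K27me1 sites. For H3K27me2 they took up 0.723% of susceptible and 0.559% of resilient sites.

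At the places where they overlapped an H3K27me2 site, dimethylation was above IgG. The 37 members formed 41 pairs with H3K27me2 sites, and in 40 pairs H3K27me2 was above IgG in the stressed and in the control group. That was also the case at 95.6% of susceptible and 97.5% of resilient H3K27me2 sites overall. The median H3K27me2 enrichment of the pairs was 2.80 in CSDS-Susceptible and 2.11 in CSDS-Control, while in the resilient table it was 2.44 in CSDS-Resilient and 2.14 in CSDS-Control. At the same members the H3K27me1 enrichment had medians of 0.79 in ELS-SbD and 0.58 in Std-Control for the susceptible pairs, and 0.78 in ELS-SbD and 0.64 in Std-Control for the resilient pairs. These members were mostly intergenic (31 of 37), with 5 in gene bodies, among them Vegfc, a lymphatic growth factor gene, and Cpa6, a carboxypeptidase gene. The exception was Tmem267, where H3K27me2 was 0.45 of IgG in CSDS-Susceptible and 0.62 in CSDS-Control.

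**Figure D5:**
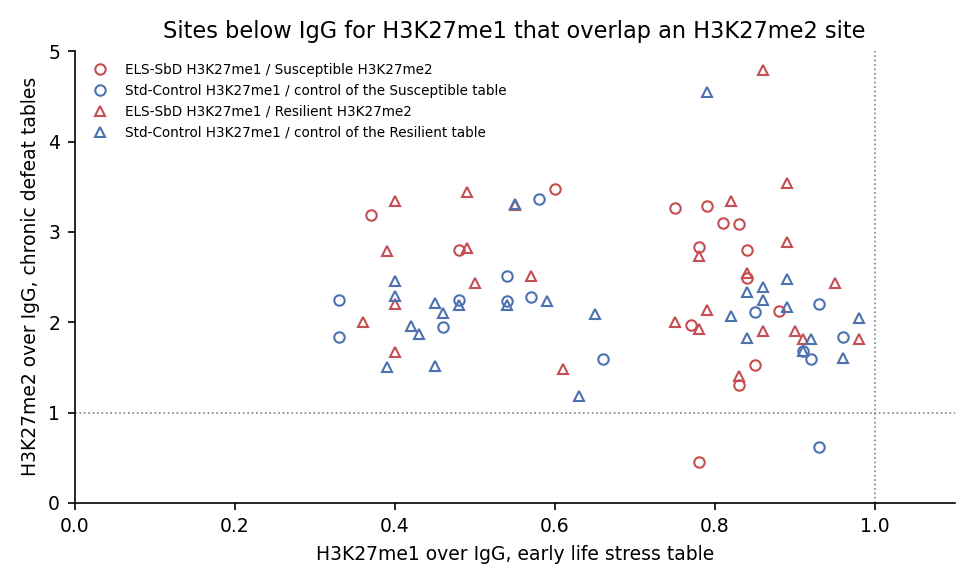
Enrichment over IgG at members that overlap an H3K27me2 site of a chronic defeat table. The horizontal axis is H3K27me1 in the early life stress table and the vertical axis H3K27me2 in the defeat table, both as ratios to IgG; dotted lines mark 1. Stressed groups are red and control groups blue, and 40 of the 41 pairs lie above 1 in both groups.

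The direction of change in defeat was mixed. Of the H3K27me2 pairs, 5 of 15 in the susceptible and 9 of 26 in the resilient table had the direction seen after early life stress. Of the H3K27me1 pairs, 3 of 5 in the susceptible and 2 of 4 in the resilient table did. Hibch was higher in the authors' deposited table for CSDS-Susceptible as well, with a log2 fold change of 0.52 and an adjusted p of 0.00100. Its H3K27me1 reads were 85.9, 70.4, 89.5 and 82.1 in CSDS-Susceptible, against 54.3, 33.4, 75.7 and 64.8 in CSDS-Control. The groups overlapped in 1 library of each, and enrichment was 1 in CSDS-Susceptible and 0.33 in CSDS-Control. An exact two-sided permutation test over these 4 and 4 libraries gave p = 0.0571 for Hibch. Over the 9 H3K27me1 pairs the adjusted permutation p was 0.193 to 0.286, and the design cannot go below p = 0.0286. The defeat sites were listed for a difference in these same libraries. These permutation p-values therefore describe spread and are no independent test.

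Duxf3, Tmem267 and the site at chr6:47750301 were lower in both defeat H3K27me1 tables. Duxf3 averaged 723 ± 166.5 reads in CSDS-Susceptible and 867 ± 100.5 in CSDS-Control (SD, n = 4 each), and in the resilient table it averaged 324 ± 70.9 in CSDS-Resilient and 375 ± 64.1 in CSDS-Control. The sites called in each table have different bounds, so read numbers differ between tables. The site at chr6:47674201 averaged 416 ± 43.2 reads in CSDS-Susceptible and 529 ± 68.2 in CSDS-Control (SD, n = 4 each), at 0.50 of IgG in CSDS-Susceptible and 0.49 in CSDS-Control. It was thus below IgG in both experiments. So was the site at chr6:47750301, at 0.65 in CSDS-Susceptible and 0.66 in CSDS-Control. In the resilient table that site was at 0.60 in CSDS-Resilient and 0.76 in CSDS-Control. The site at chr8:55351901 was below IgG there as well, at 0.66 in CSDS-Resilient and 0.42 in CSDS-Control.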

How the data were processed

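The data are 5 tables of differential sites (mm10) from CUT&RUN with antibodies to H3K27me1 or H3K27me2 and with IgG. Per the submitters' processing notes, the tools included Bowtie2 2.4.1, MACS2 2.2.6, SAMtools 1.10, cutadapt 2.10 and Trim Galore 0.6.5. Per the file headers, the authors called sites with diffReps 1.55.4 in windows of 1000 bp moved by 100 bp (fragment size 100 bp, p limit 0.0001), with a negative binomial test for early life stress and a G-test for defeat. The deposited signal is the mean of normalised reads over a group's libraries, read counts divided by library constants of 0.87 to 1.15. The deposited enrichment is a ratio to the group's IgG libraries, whose scaling the headers do not give. The deposited log2 fold change and p-value are the authors' own, with p adjusted over 1287727 windows. The deposited reads of each library were used as they stand, and depth was 5 to 7.78 reads per 1000-bp bin.

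Sites were placed against 21951 protein-coding genes of GENCODE M21, a start taking precedence over a gene body. A gene's start was the 5′ end of its whole annotated span, so other promoters of a gene were not counted as starts. Implied IgG is the deposited average divided by the deposited enrichment, and is approximate since enrichments carry 2 decimals. limma 3.58.1 (R 4.3.3) was run on log2(normalised reads + 1) over all 10234 sites of the table. On simulated data for this comparison it recovered 43.5% of 200 sites changed 2-fold among 10234, with 3 false calls. The spread between simulated libraries was assumed, not estimated from these libraries, and the recovery depends on it. That recovery is with adjustment over a table in which few sites change. P-values measure only the spread between these samples. Other values came from Python 3.11.15, numpy 2.4.6, pandas 2.3.3, scipy 1.17.1 and matplotlib 3.10.9. Shares carry exact (Clopper-Pearson) 95% binomial intervals.

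The members, the 22 gene classes and the tests were chosen with earlier results of these data known. Named were the 8 higher and 8 lower members with the most reads, 12 at gene starts, the 6 named genes with the most members, the 3 of lowest enrichment, 3 on each side of the limit, up to 8 that overlap a defeat site, up to 3 for each gene class, and the fullest 1-Mb bins; 3 sites that this rule takes are not reported here. Promoter windows replaced the site centres meant to be shown. Alternatives covered the limit, the annotation, the pseudocount, the low-read filter and each library left out.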

Additional observations from a re-analysis of the deposited data

How the results depend on the processing

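Of 43 alternative values, 32 stayed close to the value reported and 11 moved. Close meant inside the binomial interval for shares, and within a set fold for counts and ratios. These labels compare size only and could not mark a reversal, so they say nothing on direction. The share of sites higher in ELS-SbD ran from 73.4% to 88.3% over its alternatives, so most sites were higher in each. With both groups under 0.9 there were 1321 sites, with 10.4% at starts and 61.8% intergenic. With either group under 1 there were 7309. The start share was 9.04% within 2000 bp, 10.8% with genes of every biotype and 5.42% for the site's centre only, and the intergenic share was 55.7% with genes of every biotype. With both groups under 0.5, a limit chosen after seeing the data, 88.3% of sites were higher in ELS-SbD. With adjustment over all windows, limma called 0 members, and 2208 had an unadjusted p under 0.05.

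Leaving out 1 library at a time gave 2178 to 2543 sites. Direction and calls were recomputed only over the 2212 members as reported, not over these new sets. Over those members the share of higher sites was 74.2% each time (74.19% to 74.23%), with 2204 to 2208 calls by limma. The direction and the calls had little room to move, because the sites were listed for their difference in these libraries and the groups did not overlap at 2201 members. The highest number, 2543, came without ELS-SbD library 48. The median H3K27me1 level of the members was 0.717 of that of all other autosomal sites and 0.377 of that of the sites above IgG, a comparison added after seeing the data. The cause of these shifts was not tested, other than that the limits and annotations define the sets. No paired analysis was possible because the groups share no library number. The numbers of the 4 early life stress groups follow each other in turn, but the labels do not say that neighbouring numbers were handled together. Tests with count models, listed among the alternatives, were not run. Depth limits every value: members had a median of 24.7 reads per library.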
